A study of Mus musculus with 45 samples.

Results

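Interferons are secreted signals that bind paired receptors at the cell surface, activate JAK kinases and STAT factors, and switch on a shared set of interferon-stimulated genes. The products of these genes act against viruses and intracellular microbes: guanylate-binding proteins are GTPases that gather on the membranes around pathogens, and others tether virions, sense double-stranded RNA or block translation of viral RNA. Pluripotent stem cells are known for a weak response to interferon, which is gained as cells differentiate. The 10 genes described here were listed by symbol: the guanylate-binding protein genes Gbp2, Gbp2b and Gbp3, and the interferon-stimulated genes Usp18, Isg15, Oas1a, Bst2, Ifit1, Ifi35 and Irf7. Each is represented by the probe set with the highest mean over all arrays. Of the 10 genes, 9 had a probe set of their own and were tested among 18193 genes. Isg15 was measured only by a probe set that is also annotated to the pseudogene Gm9706, so its values are uncertain and enter no count.

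Gene expression was measured on 45 Affymetrix Mouse 430 2.0 arrays of male strain 129 murine embryonic stem cells (ESCs) and of embryoid bodies (EBs), the cell aggregates that ESCs form in hanging drops. The 3 lines were wild type (WT), a scrambled control (SCR), and cells in which Strip2, a subunit of a phosphatase and kinase complex, is labelled as silenced (KD). Each line was sampled undifferentiated and on EB days 4, 8, 12 and 16, with 3 arrays in each of the 15 groups. The labels name 1 line of each kind and no growth factor, interferon or virus, and nothing in them says that the 3 arrays of a group come from separate cultures. The p-values then measure the spread between these arrays only. Levels are log2 signals, differences are between group means on that scale, and a gene is called higher or lower where its limma p, adjusted by Benjamini and Hochberg over all 18193 genes, is under 0.05.

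The array medians lay between 5.02 and 5.18, and arrays of a group correlated at 0.9888 to 0.9961, both over all 45037 probe sets. The Strip2 probe set was dim in all lines (group means 2.57 to 4.85). It was not called lower in the KD line than in WT at any stage, and against SCR it was called lower on days 12 and 16 only (by 0.92 ± 0.19 SE and 1.56 ± 0.19 SE), days on which SCR itself was called higher than WT. The third line is therefore called KD-labelled throughout, and every direction given for it rests on that label. The 5 pluripotency markers checked (Pou5f1, Nanog, Sox2, Zfp42 and Esrrb) averaged 11.02 to 11.19 in the KD-labelled EBs, close to their 11.17 to 11.63 in the 3 ESC groups, against 4.86 to 6.94 in the control EBs. The 10 macrophage and leukocyte markers reached 8.82 and 8.59 on days 12 and 16 in WT, 8.12 and 7.85 in SCR, and 4.62 and 4.63 in the KD-labelled EBs. The first day 8 array of each line is tagged as ESCs in one label field and as day 8 in its title and source name, and was kept as day 8. The pluripotency markers of the 6 control day 8 arrays lay between 4.64 and 5.42. Without the first day 8 array of each line, 3 of the members' calls were lost, of which 1 is between lines (Gbp3 against SCR on day 8, limma adjusted p = 0.17), and the stage test of Irf7 against SCR was lost too (F = 2.95, 0.059). In such bulk samples, fewer cells of a type and less RNA per cell cannot be told apart.

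The promoters of the members are shown first, searched for motifs that interferon-activated factors bind. Of the 10 members, 9 had an entry in the RefSeq promoter table (assembly GRCm38.p6, 250 bases before to 50 bases after each start; Gbp3 has 2 starts). The core of the interferon-stimulated response element, searched as GAAANNGAAA on both strands, stood in 7 of the 10 member windows (70%), against 3.43% of all 32817 promoters. Among other interferon-stimulated genes, listed further on, it stood in 14 of 48 windows (29.2%). The gamma-activated sequence of STAT dimers, searched as TTCNNNGAA, which reads the same on both strands, stood in 3 of 10 member windows against 8.29% of all promoters. A match is a description of the letters, not of a bound site. The 150 bases before the start of the 7 windows with a response element core are printed 5′ to 3′ on the gene's strand, with matches to either motif in capitals.
Gbp2: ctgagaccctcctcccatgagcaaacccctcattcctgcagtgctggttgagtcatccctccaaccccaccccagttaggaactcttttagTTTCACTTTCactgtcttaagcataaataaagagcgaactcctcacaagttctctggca
Gbp2b: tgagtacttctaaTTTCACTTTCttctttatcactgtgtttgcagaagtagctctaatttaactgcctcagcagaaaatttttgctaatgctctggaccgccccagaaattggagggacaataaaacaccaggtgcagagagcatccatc
Gbp3: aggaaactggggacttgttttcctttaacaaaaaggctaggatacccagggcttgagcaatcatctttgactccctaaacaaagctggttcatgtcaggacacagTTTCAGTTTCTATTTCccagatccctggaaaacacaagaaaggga
Isg15: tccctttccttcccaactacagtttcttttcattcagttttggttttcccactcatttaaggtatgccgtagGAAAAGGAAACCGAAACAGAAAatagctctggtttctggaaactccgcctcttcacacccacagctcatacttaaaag
Oas1a: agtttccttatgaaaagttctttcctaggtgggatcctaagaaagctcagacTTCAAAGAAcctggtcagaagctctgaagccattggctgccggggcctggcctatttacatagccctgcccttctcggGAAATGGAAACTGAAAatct
Bst2: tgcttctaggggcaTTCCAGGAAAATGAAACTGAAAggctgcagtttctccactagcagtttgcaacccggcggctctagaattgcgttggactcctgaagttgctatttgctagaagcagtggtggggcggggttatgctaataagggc
Ifit1: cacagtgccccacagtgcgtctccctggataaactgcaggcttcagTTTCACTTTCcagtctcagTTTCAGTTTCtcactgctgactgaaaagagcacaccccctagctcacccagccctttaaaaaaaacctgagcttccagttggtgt

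The 3 guanylate-binding protein genes are neighbours on mouse chromosome 3 in GRCm38.p6: Gbp3 at chr3:142560016-142573213, Gbp2b at chr3:142594816-142619179 and Gbp2 at chr3:142620663-142638008. The printed stretches end at the start sites of the promoter table, which for Gbp3, Gbp2b and Oas1a lie inside the gene span given here. The stretches of Gbp3, Gbp2b and Gbp2 are, in that order, chr3:142559894-142560043, chr3:142594697-142594846 and chr3:142620513-142620662, all on the plus strand. The core lay 59 bases before the start in Gbp2 and 137 bases before it in Gbp2b, in the same 10 letters, TTTCACTTTC. Ifit1 (chr19:34640739-34640888, plus strand) carried those letters 104 bases before its start and a second core 85 bases before it. The minus-strand promoters were Isg15 (chr4:156200819-156200968), with 3 overlapping cores from 78 bases before the start, Oas1a (chr5:120907526-120907675), with 2 cores from 20 bases before it, and Bst2 (chr8:71537473-71537622), with 2 cores from 130 bases before it. Oas1a and Bst2 also held a gamma-activated sequence, which in Bst2 overlaps the first core by 3 bases. The Ifi35 window held only a gamma-activated sequence, 7 bases after its start, and the Irf7 window neither motif.

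Gbp2 and Gbp2b, which encode interferon-induced GTPases, were high in scrambled-control ESCs and near the dim end of the array in KD-labelled ESCs. Gbp2 read 8.39, 6.94 and 7.63 in the 3 SCR ESC arrays, 6.17, 7.34 and 4.15 in the WT ESC arrays, and 3.39, 3.06 and 3.52 in the KD-labelled ESC arrays. The KD-labelled arrays lay below all control arrays, while the WT arrays spread over more than 3 log2 units, the third being the low one. The difference was -4.33 ± 0.43 SE against SCR (limma adjusted p = 6.3e-10) and -2.56 ± 0.43 SE against WT (limma adjusted p = 2.9e-05). Signals this near the dim end have no reliable zero, so no fold is given for groups at it. A second Gbp2 probe set ran with the first over the 45 arrays (Pearson r = 0.98) and gave an ESC difference from SCR of -4.07.

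Gbp2b followed Gbp2. Its ESC levels were 8.19, 7.04 and 7.29 in SCR, 6.04, 7.12 and 4.51 in WT, and 3.73, 3.43 and 3.70 in the KD-labelled line. It was lower in the KD-labelled ESCs by 3.89 ± 0.38 SE against SCR and by 2.27 ± 0.38 SE against WT (limma adjusted p = 6.2e-10 and 3.4e-05). The 15 group means of both genes correlated at r = 0.93, but they are close paralogs, the Gbp2 probe set used is of a type that can bind related transcripts, and how far signal is shared between them was not tested. SCR ESCs were higher than WT ESCs by 1.77 ± 0.43 SE for Gbp2 and 1.62 ± 0.38 SE for Gbp2b (limma adjusted p = 0.0049 and 0.0041). Those calls rest on single arrays: without the third WT ESC array the differences were 0.90 and 0.93 (limma adjusted p = 0.16 and 0.13), and without the first SCR ESC array they were 1.40 and 1.27 (0.085 and 0.077).

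On day 4 the order turned. SCR EBs read 4.98, 3.78 and 3.87 for Gbp2, WT EBs 4.64, 5.50 and 5.42, and KD-labelled EBs 5.82, 5.73 and 5.50. Every KD-labelled array was above every SCR array, and the lowest of them was level with the highest WT array. From ESCs to day 4, Gbp2 fell by 3.44 ± 0.43 SE in SCR and rose by 2.36 ± 0.43 SE in the KD-labelled line (limma adjusted p = 1.6e-08 and 5.6e-05). In WT the change was -0.70 ± 0.43 SE and was not called (limma adjusted p = 0.20), and without the third WT ESC array it was -1.57 (0.00038). Gbp2 was thus 1.47 ± 0.43 SE higher in KD-labelled than in SCR EBs on day 4 (limma adjusted p = 0.0045), and Gbp2b 1.29 ± 0.38 SE higher (0.0056; 0.99 and 0.059 without the third SCR array of that day). Neither gene was called against WT on day 4, at 0.50 ± 0.43 SE and 0.37 ± 0.38 SE.

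On day 8 Gbp2 and Gbp2b parted. Gbp2 stood between 5.52 and 6.27 in all 9 arrays. Gbp2b read 6.64, 6.30 and 7.02 in the KD-labelled EBs against 5.39, 5.33 and 5.05 in SCR and 5.05, 5.4 and 4.94 in WT, so the KD-labelled arrays did not overlap either control. The Gbp2b difference was 1.40 ± 0.38 SE against SCR and 1.52 ± 0.38 SE against WT (limma adjusted p = 0.0021 and 0.00093). On day 12 Gbp2b was called against WT only (0.92 ± 0.38 SE, limma adjusted p = 0.043), a call lost when any 1 of 5 of the 6 arrays compared was left out, with differences of 0.82 to 0.96. By day 16 neither gene was called between the KD-labelled line and a control. KD-labelled Gbp2 was 5.37 ± 0.21 (SD) there, against 6.01 ± 0.28 in SCR and 6.13 ± 0.18 in WT, without overlap. When only the 6 arrays compared were fitted, Gbp2 was called lower on day 16 against SCR (-0.64, limma adjusted p = 0.0099) and WT (-0.76, 0.0022). So fitted, Gbp2b was called lower against WT on that day (-0.62, 0.011). Gbp2 was then also called higher than WT on days 8 and 12 (0.49 and 0.51, 0.0068 and 0.020).

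Gbp3, another GTPase of the family, reached its highest levels in mature WT EBs. WT arrays read 4.65, 4.48 and 4.74 on day 4 and 6.86, 6.77 and 7.28 on day 16. SCR arrays read 5.30, 5.18 and 5.58 on day 16 and KD-labelled arrays 4.90, 4.59 and 5.29, both groups well below WT and overlapping each other. Against WT on day 16 the difference was -2.04 ± 0.23 SE for the KD-labelled line (4.12-fold lower) and -1.62 ± 0.23 SE for SCR (limma adjusted p = 1.6e-09 and 3.6e-06). In ESCs Gbp3 was 1.0 ± 0.23 SE lower in the KD-labelled line than in SCR (limma adjusted p = 0.0011). A smaller difference of -0.71 against WT in ESCs was no longer called without the second WT array, or the second or the third KD-labelled array (-0.49, -0.52 and -0.66). That of -0.56 against SCR on day 8 was lost without the first or the third SCR array (-0.48 and -0.58) or the first or the second KD-labelled array (-0.59 and -0.48).

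**Figure D1:**
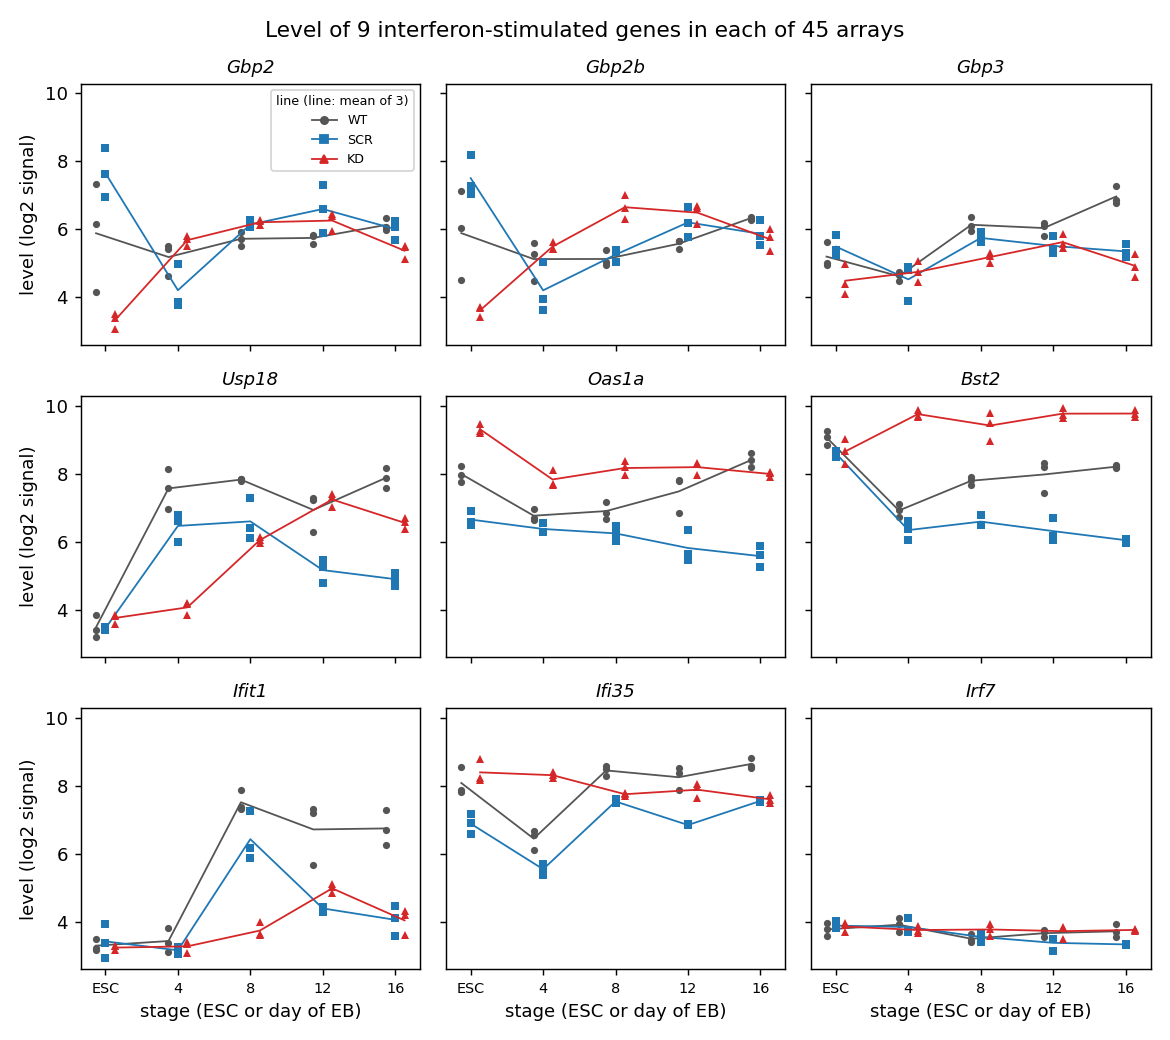
Level (log2 signal, vertical axis) of the 9 tested genes in each array by stage (horizontal axis: ESC or EB day), with WT as circles, SCR as squares and KD-labelled as triangles; lines join the means of 3 arrays. For Gbp2 and Gbp2b the cell lines are far apart in ESCs and closer in EBs. Usp18 and Ifit1 rise earlier in the controls, and Bst2 stays between 8.97 and 9.94 in the KD-labelled EBs.

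Usp18 and Isg15 belong to one system: ISG15 is a ubiquitin-like protein that is attached to other proteins, and USP18 is the protease that removes it and also restrains signalling at the type I interferon receptor. Usp18 (chr6:121245906-121270917) was near the dim end in ESCs of all lines, between 3.20 and 3.85 in the 9 arrays. On day 4 it read 6.97, 7.58 and 8.15 in WT and 6.79, 6.62 and 5.98 in SCR, but 4.16, 3.84 and 4.2 in the KD-labelled EBs. Both controls had risen and the KD-labelled arrays lay below all 6 of theirs. The rise from ESCs was 4.08 ± 0.26 SE in WT and 3.01 ± 0.26 SE in SCR (limma adjusted p = 1.1e-15 and 3.9e-12), against 0.31 ± 0.26 SE in the KD-labelled line (0.44). On day 4 the KD-labelled line was thus lower by 2.40 ± 0.26 SE than SCR and by 3.5 ± 0.26 SE than WT (limma adjusted p = 9e-10 and 9e-14).

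Later Usp18 rose in the KD-labelled EBs and fell back in SCR. KD-labelled arrays read 6.13, 6.05 and 5.95 on day 8, 7.39, 7.01 and 7.32 on day 12, and 6.37, 6.59 and 6.70 on day 16. SCR arrays read 7.29, 6.39 and 6.11 on day 8, then 4.77, 5.26 and 5.46, and 4.92, 4.70 and 5.07. WT arrays stayed between 6.29 and 8.18 over all EB days. The sign of the difference from SCR had turned by day 12: it was 2.08 ± 0.26 SE on day 12 and 1.66 ± 0.26 SE on day 16 (limma adjusted p = 1.3e-08 and 1e-06). Against WT it was 0.31 ± 0.26 SE on day 12, not called, and -1.32 ± 0.26 SE on day 16 (limma adjusted p = 0.36 and 4.3e-05). The order on day 16 was therefore WT, KD-labelled, SCR, with no overlap between neighbouring groups.

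The probe set shared by Isg15 (chr4:156199424-156200818) and Gm9706 is given as levels only. In WT it read 5.43, 5.65 and 5.60 in ESCs, 7.53, 7.62 and 7.41 on day 8, and 7.85, 7.89 and 8.05 on day 16. In SCR the day 8 arrays read 7.38, 6.72 and 6.62 and the day 16 arrays 5.54, 5.55 and 5.59, near the ESC values of 5.49, 5.31 and 5.70. KD-labelled arrays read 6.03, 5.93 and 6.37 on day 8 and 5.93, 6.12 and 6.17 on day 16. As for Usp18, the day 16 groups stood in the order WT, KD-labelled, SCR without overlap.

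Bst2 and Oas1a were higher in the KD-labelled EBs than in SCR on every day sampled. Bst2 (chr8:71534255-71537472) encodes tetherin, a membrane protein that holds budding virions on the cell surface. In ESCs its levels were 8.28 to 9.27 over the 9 arrays, and no line differed from another by a called amount. On day 4 the KD-labelled arrays read 9.67, 9.71 and 9.88, against 6.37, 6.6 and 6.05 in SCR and 6.73, 6.92 and 7.10 in WT. All 12 KD-labelled EB arrays, at 8.97 to 9.94, lay above all 12 WT EB arrays (6.73 to 8.30) and all 12 SCR EB arrays (5.95 to 6.79). Differences from SCR were 3.41, 2.83, 3.46 and 3.73 on days 4, 8, 12 and 16 (each ± 0.19 SE), 13.2-fold on day 16 (limma adjusted p = 1.8e-18). Differences from WT were 2.84, 1.62, 1.79 and 1.56 (each ± 0.19 SE, limma adjusted p of 1.1e-08 or less).

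Between ESCs and EBs, Bst2 moved in opposite directions. It fell by 2.15 ± 0.19 SE in WT and by 2.25 ± 0.19 SE in SCR by day 4, and rose by 1.10 ± 0.19 SE in the KD-labelled line (limma adjusted p = 1.1e-11, 3.5e-12 and 4.3e-05). From day 4 to day 16 the WT mean climbed back from 6.92 ± 0.19 to 8.21 ± 0.05 (SD), whereas the SCR mean went from 6.34 ± 0.28 to 6.04 ± 0.08. The pluripotency markers were near ESC level in the KD-labelled EBs, as given above, whereas the Bst2 means there, 9.42 to 9.77, were above the 8.66 of KD-labelled ESCs. The part of the pluripotency markers in the Bst2 levels was not tested.

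Oas1a (chr5:120896256-120907544) encodes an oligoadenylate synthetase that senses double-stranded RNA and is one of a cluster of close copies, among which the array signal could be shared. It was higher in the KD-labelled line already in ESCs, at 9.26, 9.19 and 9.47, against 7.77, 8.24 and 7.96 in WT and 6.48, 6.57 and 6.90 in SCR. The 3 ESC groups did not overlap. The ESC difference was 2.66 ± 0.21 SE against SCR and 1.32 ± 0.21 SE against WT (limma adjusted p = 3.1e-12 and 1.4e-05), and SCR was 1.34 ± 0.21 SE below WT (3.7e-05). In EBs the KD-labelled arrays stayed at 7.67 to 8.36, while SCR arrays were at 5.25 to 6.54 and WT arrays at 6.63 to 8.60. Against SCR the difference was called on every EB day, from 1.46 to 2.42 (each ± 0.21 SE).

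Against WT the Oas1a difference shrank with time. It was 1.07, 1.27 and 0.72 on days 4, 8 and 12 and -0.41 on day 16 (each ± 0.21 SE), when it was no longer called (limma adjusted p = 0.089). WT arrays had by then reached 8.39, 8.21 and 8.60, against 8.06, 7.90 and 8.02 in the KD-labelled EBs. The day 12 call depended on the second WT array of that day, which read 6.85 beside 7.78 and 7.80: without it the difference was 0.40 (limma adjusted p = 0.10).

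Ifit1 (chr19:34640889-34650009) encodes a protein that binds foreign RNA lacking cap methylation. It was dim through day 4 in all lines, between 2.95 and 3.95 in 18 arrays. On day 8 it read 7.87, 7.38 and 7.31 in WT and 7.26, 6.16 and 5.88 in SCR, but 3.61, 3.63 and 3.99 in the KD-labelled EBs. WT had risen by 4.22 ± 0.32 SE from ESCs and SCR by 3.01 ± 0.32 SE (limma adjusted p = 4.2e-14 and 2.6e-10), and the KD-labelled line by 0.50 ± 0.32 SE, which was not called (0.23). The KD-labelled level on day 8 was lower by 2.69 ± 0.32 SE than SCR and by 3.78 ± 0.32 SE than WT (limma adjusted p = 3.8e-09 and 1.2e-12).

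After day 8 Ifit1 fell in SCR. SCR arrays read 4.30, 4.44 and 4.45 on day 12 and 4.48, 3.59 and 4.11 on day 16, and KD-labelled arrays 5.02, 4.84 and 5.10, then 4.2, 3.61 and 4.32. WT arrays read 7.19, 5.66 and 7.31 and then 6.27, 6.70 and 7.28, above both other lines throughout. The KD-labelled line was accordingly not called against SCR on days 12 and 16 (0.59 and -0.02, each ± 0.32 SE), although the day 12 arrays did not overlap and the first value was called when only the 6 arrays compared were fitted (limma adjusted p = 0.0011). It was lower than WT by 1.73 and 2.71 (each ± 0.32 SE, limma adjusted p = 1.6e-05 and 3.4e-09). On those days Ifit1 was thus lower against WT and not against SCR.

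Ifi35 (chr11:101448412-101458701), which encodes an interferon-induced cytoplasmic protein, stood out on day 4. KD-labelled arrays read 8.42, 8.31 and 8.22, against 5.70, 5.56 and 5.39 in SCR and 6.56, 6.68 and 6.11 in WT. Ifi35 had dropped from the ESC level by 1.34 ± 0.17 SE in SCR and 1.64 ± 0.17 SE in WT, while the change in the KD-labelled line was -0.08 ± 0.17 SE. The difference on day 4 was 2.77 ± 0.17 SE against SCR and 1.87 ± 0.17 SE against WT (limma adjusted p = 6.6e-16 and 2.6e-11). From day 8 both controls were back near or above their ESC level, and the sign against WT was negative: -0.70, -0.37 and -1.04 on days 8, 12 and 16 (each ± 0.17 SE), called on days 8 and 16. Against SCR the KD-labelled line was also higher in ESCs (1.51 ± 0.17 SE, limma adjusted p = 1.6e-08) and on day 12 (1.04 ± 0.17 SE, 3e-06). Without the second WT array of day 12 the middle value against WT was -0.56 and was called (limma adjusted p = 0.010). Its 2 other probe sets ran with the one used at r = 0.94 and 0.95 over 45 arrays. Their day 4 differences were smaller, at 1.62 and 1.47 against SCR and 1.01 and 1.12 against WT.

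Irf7 (chr7:141263183-141266499), the factor that amplifies interferon gene transcription, was dim everywhere. All 45 arrays lay between 3.15 and 4.12, and its mean was at the 18.1st percentile of genes. It was called 0.34 and 0.43 (each ± 0.13 SE) higher in the KD-labelled line than in SCR on days 12 and 16 (limma adjusted p = 0.022 and 0.0042). Scaled by cyclic loess, these became 0.27 and 0.26 and were no longer called (0.061 and 0.065), and the first was also lost without the second SCR array of its day or without the first or the third KD-labelled array (0.23, 0.28 and 0.30). At this signal over background the array cannot show whether Irf7 itself differed between the lines.

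**Figure D2:**
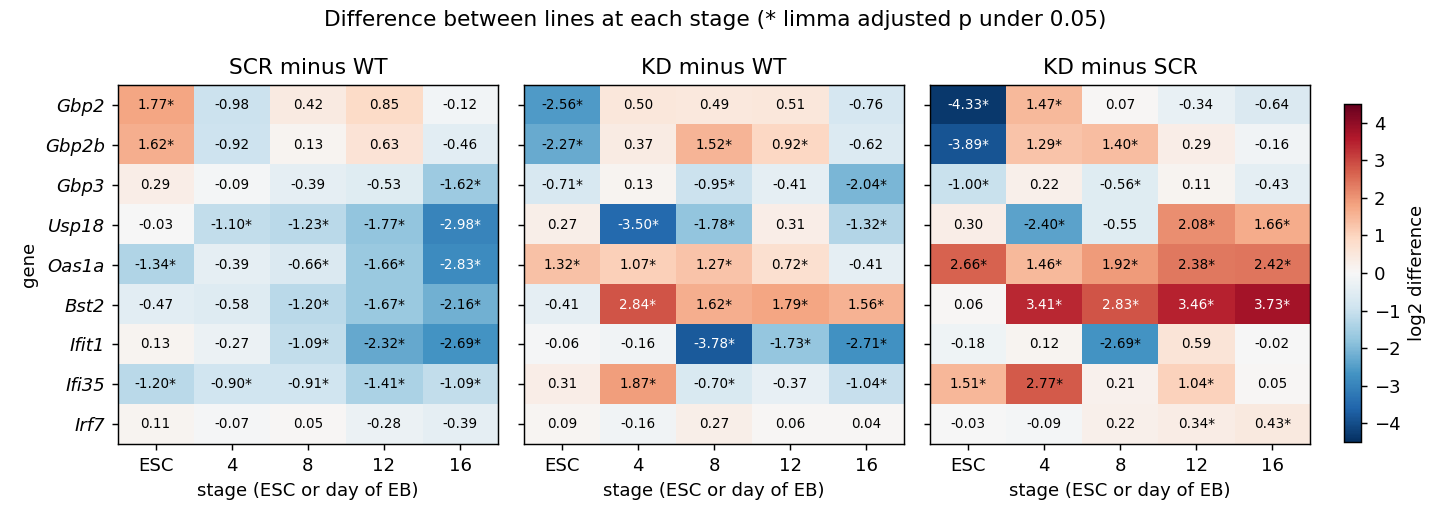
Log2 difference between 2 lines (colour and printed number) for the 9 tested genes (rows) at each stage (columns), SCR minus WT, KD-labelled minus WT and KD-labelled minus SCR from left to right; an asterisk marks a limma adjusted p under 0.05. The left panel is negative on days 8 to 16 for Usp18, Oas1a, Bst2, Ifit1 and Ifi35.

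Counted over the 9 tested genes, the KD-labelled line differed from its controls in both directions, on a background where many genes differed. Against SCR, 2 genes were higher and 3 lower in ESCs, where 12.3% and 11.3% of all genes were. On day 4 it was 5 higher and 1 lower (22.6% and 19.9% of all genes), on day 8 it was 3 and 2 (28% and 24.7%), on day 12 it was 5 and 0 (31% and 24.6%), and on day 16 it was 4 and 0 (39.8% and 26.8%). Against WT, the counts were 1 higher and 3 lower in ESCs (8.66% and 9.78%), 3 and 1 on day 4 (19.2% and 19.9%), and 3 and 4 on day 8 (26% and 23.9%). They were 3 and 1 on day 12 (27.1% and 23.6%) and 1 and 4 on day 16 (34.6% and 26.1%). Beside these backgrounds, no count is read as particular to the 9 genes.

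The members' median difference on day 16 was 0.05 against SCR (all genes 0.17) and -0.76 against WT (all genes 0.13). Genes called against both controls in the same direction were 1 higher (Oas1a) and 3 lower (Gbp2, Gbp2b and Gbp3) in ESCs, where 5.84% of all genes were higher and 6.28% lower. On day 4, Oas1a, Bst2 and Ifi35 were higher than both and Usp18 lower (17.6% and 16.8% of all genes). On day 8, Gbp2b, Oas1a and Bst2 were higher and Gbp3 and Ifit1 lower (23.1% and 21%). Day 12 left Oas1a and Bst2 higher and none lower (24.1% and 19.8%), and day 16 Bst2 alone (31.8% and 23.1%). Both comparisons share the KD-labelled arrays. The shares of all genes in these sentences are also the background of each list below that is counted against both controls.

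Whether a line difference depended on the stage was tested with a moderated F test. The KD-labelled difference from SCR varied with stage for 9 of 9 genes, where 58.5% of all genes passed, and that from WT for 8 of 9, all but Irf7, where 57.6% of all genes passed. The F statistics against SCR were highest for Bst2, Usp18 and Ifi35.

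The members were also compared with the ESCs of their own line. Relative to their own ESCs, 5, 5, 5 and 5 of the 9 genes were called on days 4, 8, 12 and 16 in WT (41.7%, 56.6%, 60% and 66.2% of all genes). In SCR it was 6, 7, 7 and 7 (42.5%, 58.2%, 66.6% and 71.8%), and in the KD-labelled line 4, 7, 8 and 7 (23.9%, 36.9%, 43.4% and 38.1%). In WT, 3 genes were above the ESC level on day 8 (Gbp3, Usp18 and Ifit1). In the KD-labelled line 5 were above it on that day: Gbp2, Gbp2b, Gbp3, Usp18 and Bst2. The WT day 16 count was 8 without the second WT ESC array. Beside the shares of all genes these counts are a description, and no test compared the changes of SCR with those of WT.

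The scrambled control departed from WT in these genes as EBs matured. In SCR against WT, 2 members were higher and 2 lower in ESCs (4.43% and 5.72% of all genes). In EBs no member was higher (0.61%, 2.83%, 7.05% and 3.86% of all genes on days 4, 8, 12 and 16). Lower were 2 members on day 4 (1.32% of all genes), 5 on day 8 (4.16%), 5 on day 12 (7.67%) and 6 on day 16 (4.25%). The median difference of the members went from -0.58 on day 4 to -0.66, -1.41 and -1.62, while that of all genes was -0.04, -0.02, -0.04 and -0.03. Usp18 was lower by 1.10, 1.23, 1.77 and 2.98 on the 4 days (each ± 0.26 SE), the last of them 7.89-fold (limma adjusted p = 7.6e-11), and Oas1a by 2.83 ± 0.21 SE on day 16 (9.3e-13). Bst2 was lower by 2.16 ± 0.19 SE and Ifit1 by 2.69 ± 0.32 SE on day 16 (limma adjusted p = 1.4e-10 and 8e-08).

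Usp18, Oas1a, Bst2, Ifit1 and Ifi35 were lower in SCR on all of days 8, 12 and 16, that is 5 of 9 members, and so were 158 of 18193 genes (0.868%). The members and all gene lists were chosen with earlier results of these data known, so this contrast with all genes is a description only. On day 8 the Oas1a and Ifit1 calls were the weak ones, at -0.66 ± 0.21 SE and -1.09 ± 0.32 SE (limma adjusted p = 0.048 and 0.029). Without the third SCR array of that day they were -0.55 and -0.81 (limma adjusted p = 0.23 for both), and without the second WT array -0.52 and -1.16 (0.25 and 0.058). Without the second SCR array they were -0.66 and -0.95 and neither was called, Oas1a was also lost without the third WT array (-0.69) and Ifit1 without the first (-0.91). With a replicate block, the limma adjusted p of Oas1a was 0.053. The day 4 call of Usp18 was lost without the third WT array (-0.81, limma adjusted p = 0.16) or the third SCR array (-0.86, 0.18). The calls of days 12 and 16 for these 5 genes held in every such omission.

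Among 44 other interferon-stimulated genes measured, from a list of 47, those called between the controls in EBs were nearly all lower in SCR. In SCR against WT, 2 were higher and 1 lower in ESCs (4.43% and 5.72% of all genes). The lower ones numbered 2, 13, 28 and 26 on days 4, 8, 12 and 16 (1.32%, 4.16%, 7.67% and 4.25% of all genes). On day 16, 1 was higher (Cxcl10, a chemokine, by 1.14, beside 3.86% of all genes), and none was on the other EB days. Their median difference was -0.17, -0.28, -0.76 and -0.70 on the 4 days. On all of days 8, 12 and 16, 11 of the 44 (25%) were lower, beside 0.868% of all genes, with the same limit from the choice of the list. Over all 110 pathway genes described further on, 18 were called on day 8 and 47 on day 12 (6.99% and 14.7% of all genes). The first count was 5 without the third SCR array, 9 without the second SCR or the second WT array, and the other 28 without the third WT array and 29 without the first. Over all omissions of 1 array the counts ran from 5 to 27 on day 8 and from 28 to 52 on day 12. On day 16, 38 were called (8.11% of all genes), and 27 to 37 with 1 array left out. The largest mean drops over days 8, 12 and 16, named after their values were seen, were those of Rtp4, a receptor-transporting protein with antiviral activity, by 1.04, 1.79 and 3.04, and Ifit3, a partner of IFIT1, by 1.03, 1.71 and 1.60. Xaf1, a factor that promotes apoptosis, was lower by 1.0, 1.34 and 1.83.

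**Figure D3:**
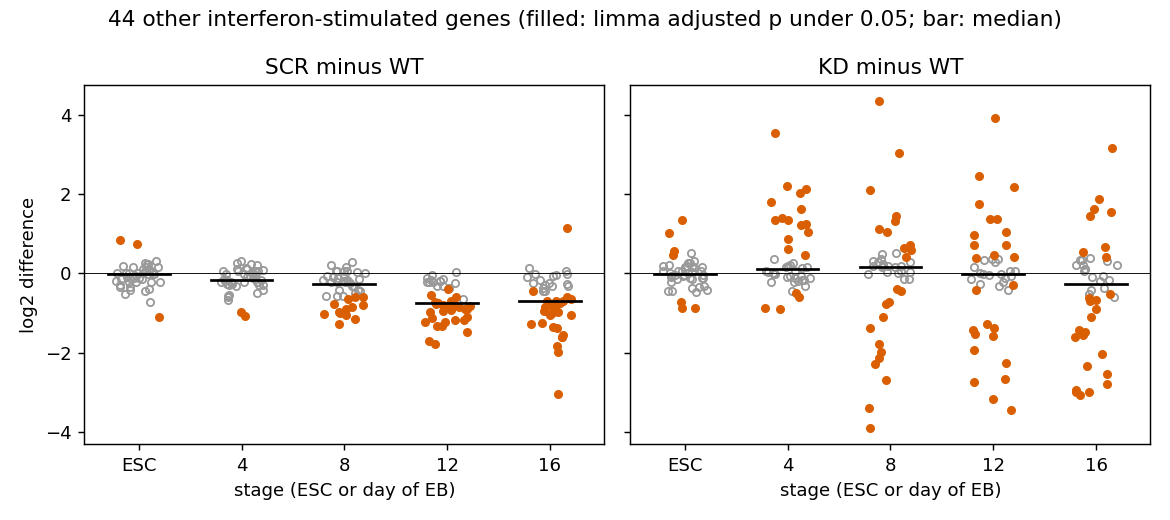
Log2 difference (vertical axis) of 44 other interferon-stimulated genes at each stage (horizontal axis), SCR minus WT on the left and KD-labelled minus WT on the right; each point is a gene, filled where the limma adjusted p is under 0.05, and the bar is the median. In SCR minus WT the median sinks to -0.76 on day 12 and -0.70 on day 16, while KD-labelled minus WT holds genes far above and far below 0.

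Some marker lists and single arrays also differed between the controls on these days, not all in one direction. The mean of the 10 macrophage and leukocyte markers was 5.73 in WT and 5.56 in SCR on day 8, 8.82 and 8.12 on day 12, and 8.59 and 7.85 on day 16. Called lower in SCR were 0, 6 and 5 of the 10 (4.16%, 7.67% and 4.25% of all genes), and none was higher. Of the 7 endothelial markers, 2 were called lower in SCR on day 8, and 5 were higher on each of days 12 and 16 (7.05% and 3.86% of all genes). Of the 10 mesenchyme and fibroblast markers, 2 were lower on day 8, 3 higher and 6 lower on day 12, and 1 higher and 3 lower on day 16. Of the 6 visceral endoderm markers, 2 were lower on day 8, 1 on day 12 and none on day 16, with none higher. Of the 5 pluripotency markers, 3 were lower on day 16 only, where their mean was 5.72 in SCR and 6.94 in WT. The mean of the 44 interferon-stimulated genes was 6.11 in WT against 5.73 in SCR on day 8, 6.47 against 5.75 on day 12 and 6.62 against 5.90 on day 16. Within day 12 of WT, the second array was the lowest of the 3 in 36 of the 44 genes and in 7 of the 9 members (44.2% of all genes), with a macrophage mean of 8.44 beside 9.08 and 8.95. On day 16 of WT the third array was the highest in 32 of the 44 genes and in 7 of the 9 members (41.9% of all genes), with a macrophage mean of 8.54 between the 8.79 and 8.43 of the other arrays. The second WT array of that day had the lowest mean of the 44 genes, 6.50, and the lowest macrophage mean. On day 12 of SCR the first array had the lowest mean of the 44 genes, 5.70, and the highest macrophage mean, 8.44. On day 8 of SCR the third array was the lowest in 26 of the 44 genes and in 6 of the 9 members (29.6% of all genes). Its macrophage mean was 5.16, beside 5.73 and 5.80. The part of cell makeup in the SCR difference was not tested.

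**Figure D4:**
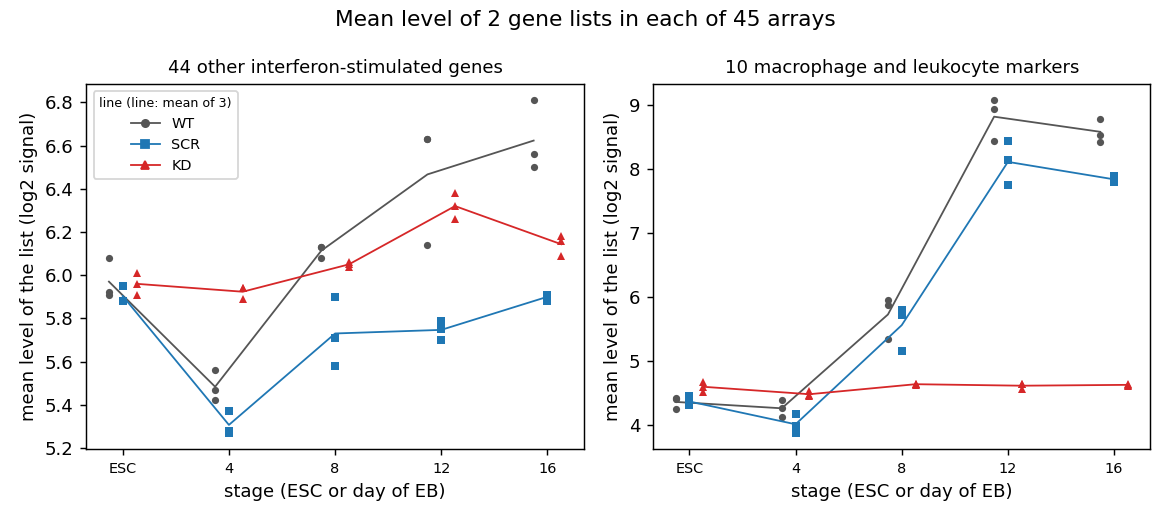
Mean level (log2 signal, vertical axis) of 44 other interferon-stimulated genes (left) and of 10 macrophage and leukocyte markers (right) in each array by stage (horizontal axis), with WT as circles, SCR as squares and KD-labelled as triangles; lines join means of 3 arrays. The markers rise to 8.82 in WT and 8.12 in SCR by day 12 and stay at 4.64 or less in the KD-labelled EBs, whose interferon-stimulated genes lie between SCR and WT on days 8 to 16.

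The rest of the pathway was described from lists of 136 genes, of which 110 were measured by a probe set of their own. Ligands were mostly dim: the 10 measured interferon genes averaged 3.73. Against both controls, none was called in ESCs or on days 4 and 8, 1 was lower on day 12 and 1 on day 16, and 1 was higher on day 16. The lower one was Ifnz on both days (-1.37 and -1.21 against SCR), and the higher one Ifna5 (0.54 against SCR).

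The receptor genes were lower in the KD-labelled EBs. Of 6, the 5 genes Ifnar1, Ifnar2, Ifngr1, Ifngr2 and Il10rb were lower than in both controls on each of days 4, 8, 12 and 16 (16.8%, 21%, 19.8% and 23.1% of all genes), and the sixth, Ifnlr1, was higher on each. In ESCs only Ifngr1 was called against both. Ifngr1, the ligand-binding chain of the interferon gamma receptor, had a day 16 level of 6.66 ± 0.21 (SD) in the KD-labelled line against 8.57 ± 0.09 in SCR and 8.56 ± 0.22 in WT. Il10rb, a chain shared by the receptors of type III interferons and interleukin 10, rose from 4.63 ± 0.16 in WT ESCs to 8.67 ± 0.05 on day 16, and reached 6.24 ± 0.29 in the KD-labelled line. Ifnar1, of the type I receptor, was lower on day 16 by 1.26 against SCR and 1.23 against WT (each ± 0.15 SE, limma adjusted p = 1.8e-09 and 3.9e-09). The response element core was in 0 of the 5 receptor promoters searched.

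**Figure D5:**
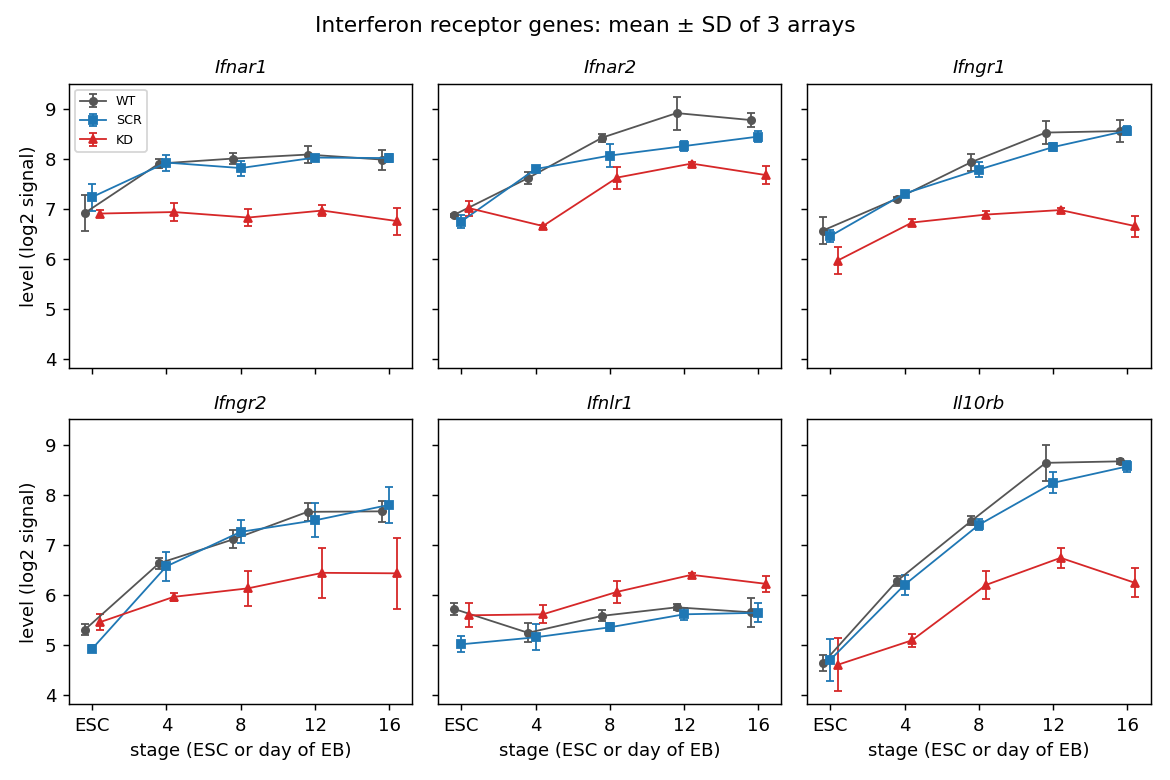
Level (log2 signal, vertical axis) of 6 interferon receptor genes by stage (horizontal axis) as mean ± SD of 3 arrays, with WT as circles, SCR as squares and KD-labelled as triangles. WT and SCR climb together, as in Ifngr1 to 8.56 and 8.57 on day 16, while the KD-labelled line stays lower for every gene but Ifnlr1.

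Among JAK and STAT genes, Jak2, a kinase of the interferon gamma receptor, was lower than in both controls on every EB day (by 1.12 and 1.04 on day 4). Tyk2, a kinase of the type I receptor, was higher than in both on days 8, 12 and 16 (0.64 and 0.53 on day 16). Jak1, used by both receptors, was higher in ESCs (0.88 and 0.61). Of 11 IRF factors and inhibitors, 3, 2, 4 and 3 were higher than in both controls on the 4 EB days and 1, 4, 4 and 4 lower (17.6% to 31.8% of all genes higher and 16.8% to 23.1% lower). Irf1, an activator of interferon-stimulated genes, was lower in ESCs (-0.68 and -0.52) and higher on all EB days (1.87 and 1.78 on day 8), and Irf2, which competes with it, was lower on all EB days (-2.53 and -2.43 on day 16).

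Other guanylate-binding proteins and immunity-related GTPases were lower in the KD-labelled EBs where they were called against both controls. Of 10 measured, none was called against both controls in ESCs, and 2, 4, 4 and 5 were lower than in both on days 4, 8, 12 and 16 (16.8%, 21%, 19.8% and 23.1% of all genes), with none higher. Against SCR, whatever the call against WT, 2 were lower in ESCs (11.3% of all genes). On day 4, 2 were higher and 2 lower (22.6% and 19.9%). On days 8, 12 and 16, 1, 2 and 1 were higher than SCR (28%, 31% and 39.8%), the largest difference on day 12 being 1.66. Lower than SCR were 4, 4 and 5 on those days (24.7%, 24.6% and 26.8%). Gbp6 read 7.42 ± 0.49 in WT and 7.46 ± 0.19 in SCR on day 16 but 4.31 ± 0.27 (SD) in the KD-labelled EBs, a level near that of the ESCs (3.70 to 4.06). Iigp1, a GTPase that attacks parasite vacuoles, read 7.73 ± 0.21 and 7.41 ± 0.35 against 4.01 ± 0.26. The response element core was in 7 of the 8 promoters of this list that were searched (87.5%). The difference between Gbp2 and these genes was not itself tested.

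The 44 other interferon-stimulated genes went both ways in the KD-labelled EBs. Against both controls 15 were higher and 3 lower on day 4 (17.6% and 16.8% of all genes), 11 and 12 on day 8 (23.1% and 21%), 13 and 8 on day 12 (24.1% and 19.8%), and 8 and 9 on day 16 (31.8% and 23.1%). In ESCs it was 2 and 1 (5.84% and 6.28%). Phf11d, a gene of the PHD finger family, was at 10.33 ± 0.30 in KD-labelled ESCs and 9.05 to 9.84 in the EB groups, while it fell from 9.32 ± 0.47 to 5.52 ± 0.34 (SD) by day 4 in WT. Trim25, an E3 ligase that activates the RNA sensor RIG-I, was higher by 2.89 against SCR and 1.81 against WT on day 4 and by 3.24 and 1.87 on day 16. Ifit2, a relative of Ifit1, was lower by 3.57 and 3.90 on day 8 (each ± 0.27 SE), where Ifit1 was lower too. Samd9l and Lgals3bp were lower on day 16 (by 3.14 and 3.0, and by 1.95 and 2.95).

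Sensors of viral nucleic acid and the class I pathway changed with the day. Ddx58, which encodes RIG-I, was higher than in both controls on days 4, 8 and 12 (1.37 and 1.42 on day 4), and Tlr3, Ifih1, Ikbke and Sting1 were among 5 sensors and adaptors that were lower on day 16 (Tlr3 by 1.69 and 1.27). Of 12 genes of class I antigen processing, 5 were lower than in both controls in ESCs (6.28% of all genes) and none higher, among them the immunoproteasome subunit Psmb8 (-1.48 and -0.94), the peptide transporter Tap1 (-1.06 and -0.64) and H2-K1 (-1.16 and -0.78). The sign was the opposite on day 8, when 7 were higher (23.1% of all genes) and none lower, among them Psmb9 (1.57 and 1.07) and H2-K1 (1.06 and 0.60). On day 4, 2 were higher and 1 lower, and on day 12, 4 were higher and none lower (24.1% of all genes higher). On day 16, 2 were higher and 3 lower, with B2m, the class I light chain, down by 0.97 and 1.34. H2-K1 was thus lower in KD-labelled ESCs, as Gbp2 and Gbp2b were, and higher on day 8, as Gbp2b was. It was also higher than both controls on day 12 (1.52 and 1.17), when Gbp2b was called against WT only and Gbp2 against neither. On day 4 H2-K1, Gbp2 and Gbp2b were not called against both controls. The likeness of these genes was not tested.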

How the data were processed

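The deposited values are log2 signals of 45037 probe sets on Affymetrix Mouse430 2.0 arrays, hybridised with biotin-labelled RNA per the labels' protocols. Per the submitters' processing notes, the tools named are Affymetrix Expression Console, Partek 6.6 and RMA, with no order given; the genome build is not given in the sources used here. The deposited values were not normalized again, and the number of arrays limits the precision. The members and all gene lists were chosen with earlier results of these data known.

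Probe sets with 1 gene symbol in the platform annotation (34945; 932 have several and 9160 none) gave 18193 genes, each by the probe set with the highest mean over all arrays. limma 3.58.1 in R 4.3.3 fitted a mean per line and stage over all 45 arrays (30 residual degrees of freedom), with empirical Bayes moderation and Benjamini-Hochberg adjustment over all genes of a contrast. Line differences by stage were compared with limma's moderated F. The code was tested on simulated data.

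Besides the members, up to 4 genes per pathway list and stage are named, those with the largest mean difference among genes called alike against both controls, and the 5 genes most like Gbp2 and the 5 most like the members' mean. Genes singled out otherwise were chosen after their values were seen. The deviation shared by arrays of equal number was small at the median (81 pairs, Pearson r -0.30 to 0.48, median 0.02), and 29 pairs exceeded 0.1. All 3 pairs exceeded 0.1 in 3 of 27 comparisons, which were SCR minus WT in ESCs and on days 8 and 12. The main fit took no account of array numbers. Alternatives were median centring, cyclic loess, the mean of all probe sets, a filter on dim genes, only the arrays compared, a replicate block, and leaving out arrays. Of 136 listed pathway genes, 26 were not analysed here.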

Additional observations from a re-analysis of the deposited data

Results flagged for a closer look

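Under the moderated F test, the difference between the KD-labelled line and a control varied with the stage for most of the tested genes. Against SCR the F statistic was 60.45 for Bst2, 47.76 for Usp18, 40.39 for Ifi35, 31.93 for Gbp2b and 25.68 for Gbp2, then 16.52 for Ifit1, 5.27 for Oas1a, 4.72 for Gbp3 and 3.09 for Irf7. Bst2 did not differ in ESCs and was above SCR on every EB day, whereas Gbp2 and Gbp2b were far below SCR in ESCs and above it on day 4. The limma adjusted p of Irf7 was 0.048, and it passed 0.05 on leaving out single arrays, with F statistics down to 2.39 (adjusted p = 0.11 without the first SCR array of day 4).

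Against WT the F statistic was 44.09 for Ifi35, 37.13 for Usp18, 36.76 for Bst2, 25.74 for Ifit1, 15.17 for Gbp2b, 12 for Gbp3, 11.65 for Oas1a and 9.96 for Gbp2. Usp18 was below WT on days 4, 8 and 16 and not called in ESCs or on day 12. Ifi35 was above WT on day 4 and below it on days 8 and 16. Ifit1 was below WT from day 8 onward.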

How the results depend on the processing

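No called difference of a member changed sign under any alternative run. Median centring, cyclic loess, the mean of all probe sets and the replicate block left the number of members called within 1.5 times in all 29 comparisons. The block, over all arrays, took the call of Oas1a for SCR minus WT on day 8 (limma adjusted p = 0.053) and gave 1 to Irf7 for SCR minus WT on day 16 (0.046). Fitting only the arrays compared gave 8 members in place of 5 for KD-labelled minus WT on day 16, 1 in place of 4 for SCR minus WT in ESCs, 3 in place of 5 on day 8, and 0 in place of 2 on day 4, where 6 members had an unadjusted limma p below 0.05.

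Testing only genes above the median mean leaves 3 members, Oas1a, Bst2 and Ifi35. From ESCs to day 16 their counts were 2, 3, 2, 3 and 2 against SCR, 1, 3, 3, 2 and 2 against WT, and 2, 1, 3, 3 and 3 for SCR minus WT. From day 4 to day 16 against ESCs they were 3, 2, 2 and 2 in WT, 2, 2, 2 and 3 in SCR, and 2, 3, 3 and 3 in the KD-labelled line, and 3 in both stage tests.

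Leaving out 1 array moved 4 counts by over 1.5 times. For SCR minus WT these were 2 to 4 in ESCs (2 without the third WT or the first SCR array), 1 to 2 on day 4 (1 without the third WT or the third SCR array) and 3 to 5 on day 8 (3 without the second WT array or the second or the third SCR array), and for WT on day 16 against ESCs 5 to 8 (8 without the second WT ESC array). The median of all genes for KD-labelled minus SCR on day 16 was 0.17 as deposited, 0.25 after median centring and 0.05 after cyclic loess. Differences of dim members are limited by signal near the array's floor.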

Other observations

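Members left out, the genes whose 15 group means resembled those of Gbp2 most, among genes ranging over at least 2 log2 units, were Tmcc3 (Pearson r = 0.926), Esrp1 (0.785), Marveld3 (0.778), Galnt3 (0.731) and Nav2 (0.705). For the mean of the members they were 3830417A13Rik (0.866), Parp4 (0.865), Rsad2 (0.863), Mbnl3 (0.847) and Nppb (0.804). Among the members the closest pairs were Gbp2 with Gbp2b (0.93), Gbp3 with Ifit1 (0.85) and Oas1a with Bst2 (0.81). These values describe 15 groups that share lines and stages, and carry no test.

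Rsad2, which encodes the antiviral enzyme viperin, was higher in the KD-labelled EBs than in SCR by 0.60, 1.09, 2.14 and 1.47 on days 4, 8, 12 and 16 (each ± 0.25 SE, all called by limma), and against WT by 0.86 and 1.37 on days 4 and 12. Against WT it was not called on days 8 and 16, at 0.19 and -0.51.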
